A study of Saccharomyces cerevisiae with 7 samples.

Results

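Glucose enters budding yeast through hexose transporters of the HXT family and is then phosphorylated by a kinase, which commits it to glycolysis. The genes described here are the transporter genes HXT1 to HXT7 and the genes of the 3 glucose-phosphorylating enzymes, HXK1 and HXK2, which encode hexokinases, and GLK1, which encodes glucokinase. They were taken by symbol from a table of nascent RNA in Saccharomyces cerevisiae that lists 5732 genes, and 9 of the 10 symbols had a row. No row carried the name HXT6, so HXT6 was not analysed here. All 9 gene names and loci matched the RefSeq gene table. All 9 passed the filter on low values, which was set for the whole table on the mean over the conditions.

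The nascent RNA came from strain DPY1283, labelled Hsf1-AA, Rpb3-FLAG, which is a single strain. In an anchor-away (AA) strain, rapamycin tethers the tagged protein, here the heat shock transcription factor Hsf1, to an anchor outside the nucleus. Rpb3 is a subunit of RNA polymerase II, through which nascent RNA is purified. Cultures at 30 °C and at 39 °C (heat shock) were each sampled untreated and with 1 µM rapamycin, which makes 4 conditions, and every group carried both tags. The sources used here do not give the length of the treatments or the carbon source. An untagged strain with rapamycin was not analysed here, so loss of nuclear Hsf1 and any other action of rapamycin cannot be told apart. These were cultures measured in bulk, in which fewer active cells and less transcription per cell cannot be told apart. The series also has 3 Hsf1 binding samples, not analysed here.

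Each value below is the authors' mean normalized read count of a gene in a condition. The deposited table has 1 such mean per condition, so there is no replicate spread, no SD and no test. The columns summed to between 369160.1 and 433510.0. Depth read from the spacing of the low values was estimated at 205000 to 794000 reads for each of 2 averaged libraries per column. The intervals given are at 95% and, like the standard errors, hold counting error alone. HSF1 itself lay between 60.3 and 113 normalized reads, which does not check removal, because the anchor-away method moves the protein.

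As background, the transporters differ in affinity and in when they are made. Hxt1 and Hxt3 are low-affinity carriers used at ample glucose, Hxt2 and Hxt4 serve lower glucose, Hxt6 and Hxt7 are high-affinity carriers repressed by glucose, and Hxt5 is known from slow growth and stress. The sensors Snf3 and Rgt2 report glucose to the repressor Rgt1, which controls many HXT genes, while the repressor Mig1, acting with Cyc8 and Tup1, keeps genes for other carbon sources off when glucose is plentiful. The kinase Snf1, active when glucose is low, inactivates Mig1 and so relieves that repression. Hxk2 is the main kinase of glucose-grown cells and also acts in glucose repression. Hxk1 and Glk1 are known to be made when glucose runs low and under stress.

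The first comparison is heat shock without rapamycin. At 39 °C, 4 of the 9 genes had at least 2-fold more nascent RNA signal than at 30 °C, namely HXT5, HXT7, HXK1 and GLK1. Another 2, HXT1 and HXT3, were at least 2-fold lower. HXT2, HXT4 and HXK2 did not pass 2-fold. Over all 4585 genes that passed the filter, 16.1% passed 2-fold upward and 17.9% downward, so a gene past 2-fold was common in this comparison. The filter asks for a mean over the 4 columns of at least 14.442. HXT5 and HXT7 were under that value in both columns at 30 °C and passed only through their values at 39 °C. HXT1 was under it in both columns at 39 °C and passed only through its values at 30 °C. These were 740 and 820 genes, and with all columns rescaled to the same total 590 and 1018. The size of the ratios set several members apart from most genes. A ratio was taken on the scale log2(value + 2.851), on which changes of low values come out too small.

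HXT3 (YDR345C, chromosome IV, 1162957 to 1164660 of the S288C assembly R64) encodes a low-affinity carrier. It had 583 normalized reads at 30 °C and 641 there with rapamycin, against 58.4 at 39 °C and 93.1 there with rapamycin. Both values at 30 °C were far above both values at 39 °C. Without rapamycin the value at 39 °C was 9.97-fold lower (counting interval 8.25 to 12.0) and the log2 ratio -3.26 (counting standard error 0.13). That ratio was the 85th lowest of the 4585 genes.

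HXT1 (YHR094C, VIII, 290913 to 292625), the other low-affinity carrier gene, had 155 normalized reads at 30 °C, 163 at 30 °C with rapamycin, 9.74 at 39 °C and 11.7 at 39 °C with rapamycin. The values fell into a high pair at 30 °C and a low pair at 39 °C. Without rapamycin the difference was 15.9-fold (10.1 to 25.1), a log2 ratio of -3.65 (counting standard error 0.26) and the 39th lowest of all. The low values at 39 °C rest on an estimated 21 reads without rapamycin, the column used in this ratio, and 15 with rapamycin.

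HXT5 (YHR096C, VIII, 294669 to 296447) encodes a carrier of intermediate affinity. Its 4 values, in the order 30 °C, 30 °C with rapamycin, 39 °C and 39 °C with rapamycin, were 7.64, 8.89, 114 and 123 normalized reads. It was near the bottom of the kept genes at 30 °C, being kept only through its values at 39 °C, where it was above the median gene. The difference without rapamycin was 15.0-fold (9.51 to 23.5) and the log2 ratio 3.48 (counting standard error 0.25), the 64th highest.

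HXT7 (YDR342C, IV, 1154216 to 1155928), a high-affinity carrier gene, had 7.71, 5.56, 73.7 and 63.4 normalized reads in the same order. The pair at 39 °C was again well clear of the pair at 30 °C. The heat shock difference was 9.56-fold (6.03 to 15.1), a log2 ratio of 2.86 (counting standard error 0.26). HXT7 and HXT6 (IV, 1159608 to 1161320) are near-identical, and the sources used here do not say how reads that map to both were counted. The HXT7 value may therefore hold HXT6 reads or leave shared reads out, and its level is uncertain. At 30 °C it stood on an estimated 24 reads without rapamycin and 13 with it. Because these values are low, the pseudocount matters here, and with 0.5 of the median value in place of 0.1 the log2 ratios of HXT1, HXT5 and HXT7 were -2.819, 2.553 and 2.001.

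HXT2 (YMR011W, XIII, 288079 to 289704) had 101, 94.5, 204 and 242 normalized reads in the same order. It was about 2-fold higher at 39 °C, 2.02-fold (1.74 to 2.36) without rapamycin. On the log2 scale its ratio lay at the threshold, at 0.998, and was 0.803 with all columns rescaled to the same total. HXT4 (YHR092C, VIII, 287081 to 288811) had 91.6, 107, 66.7 and 67.9 normalized reads, a log2 ratio of -0.44 (counting standard error 0.15) for heat shock without rapamycin. HXT2 and HXT4 had the narrowest ranges among the carriers, with a highest value 2.56-fold and 1.6-fold the lowest.

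Among the kinase genes, HXK1 (YFR053C, VI, 253592 to 255049) had 32.5 normalized reads at 30 °C, 38.8 at 30 °C with rapamycin, 1266 at 39 °C and 703 at 39 °C with rapamycin. Heat shock without rapamycin gave a 38.9-fold difference (31.5 to 48.2) and the log2 ratio 5.17 (counting standard error 0.14). It was the 18th highest ratio among all 4585 genes. GLK1 (YCL040W, III, 50838 to 52340) had 68.0, 112, 1593 and 1640 normalized reads in the same order. Its difference was 23.4-fold (20.2 to 27.2), a log2 ratio of 4.49 (counting standard error 0.11), and it ranked 32nd. For both genes the values at 39 °C were more than 10 times those at 30 °C, whichever rapamycin columns were paired.

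HXK2 (YGL253W, VII, 23935 to 25395) differed from both. It had 331, 310, 284 and 282 normalized reads, so that its highest value was 1.17-fold its lowest. Its heat shock log2 ratio without rapamycin was -0.22, with a counting standard error of 0.08, and -0.416 with equal column totals. It had the narrowest range over the 4 conditions of the 9 genes. A small reading frame of the table, YFR052C-A, is a dubious frame whose name places it by HXK1. It has no coordinates in the RefSeq table, so whether it overlaps HXK1 could not be checked. It had 6.99, 6.06, 227 and 152 normalized reads, and whether these are HXK1 reads was not tested. The reading frame YCL042W, which is in the RefSeq table, shares 106 bases with GLK1 and had between 1.24 and 17.3 normalized reads, little beside GLK1.

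**Figure D1:**
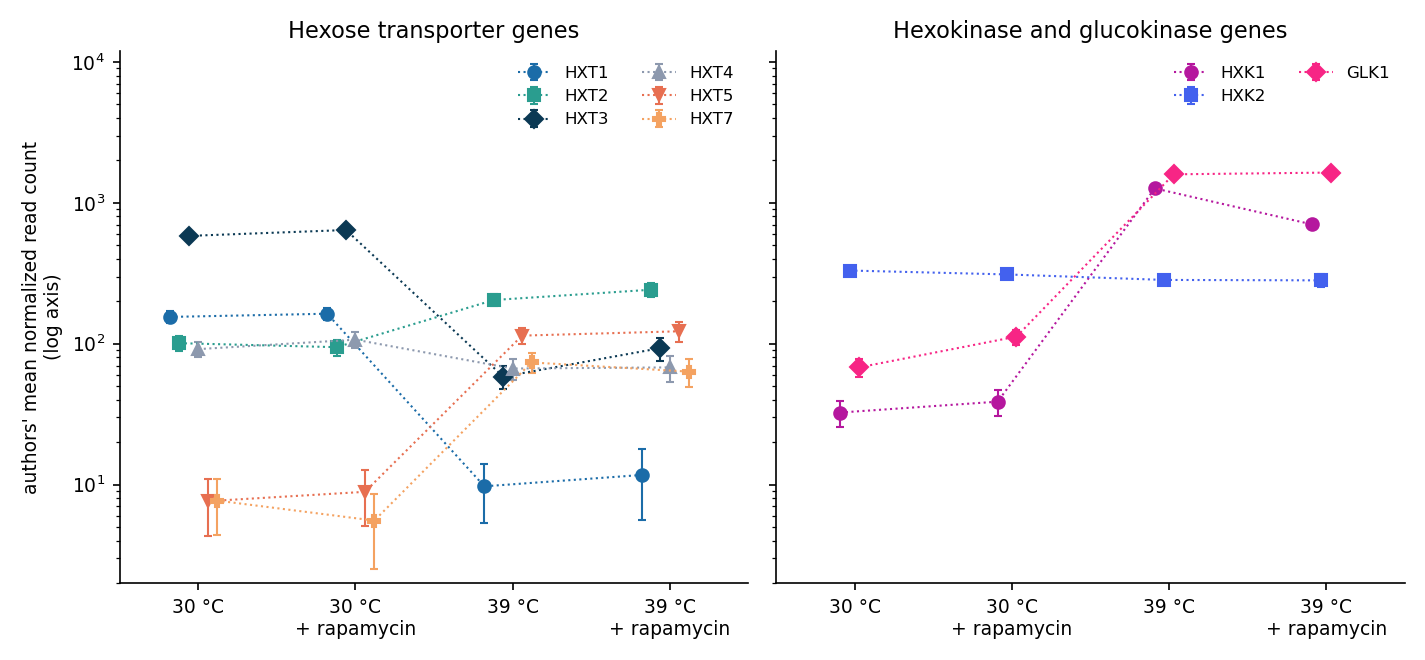
The authors' mean normalized read count of each gene (vertical, log axis) in the 4 conditions, for the transporter genes (left) and the kinase genes (right). Points are the deposited means, bars are 1.96 counting standard errors, and dotted lines only join the points of 1 gene. HXT3 and HXT1 stand at 583 and 155 at 30 °C and at 58.4 and 9.74 at 39 °C, HXT5, HXT7, HXK1 and GLK1 are higher at 39 °C, and HXK2 stays between 282 and 331.

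The members were next compared with each other per length, as normalized reads per kb of coding length. At 30 °C without rapamycin the order of the carriers was HXT3 at 342 per kb, HXT1 at 90.5, HXT2 at 62.1, HXT4 at 52.9, HXT7 at 4.50 and HXT5 at 4.29. HXT2 and HXT4, and HXT7 and HXT5, did not differ beyond counting error. At 39 °C the order was HXT2 at 126 per kb, HXT5 at 64.2, HXT7 at 43.0, HXT4 at 38.5, HXT3 at 34.3 and HXT1 at 5.68. HXT7 and HXT4, and HXT4 and HXT3, did not differ beyond counting error. The median kept gene had 26.9 per kb at 30 °C and 27.4 at 39 °C, so that HXT5 and HXT7 went from far below the median to above it and HXT1 the other way.

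With rapamycin, the order at 30 °C kept HXT3 and HXT1 on top, at 376 and 95.3 per kb, followed by HXT4 at 61.8, HXT2 at 58.1, HXT5 at 5.00 and HXT7 at 3.25. HXT4 and HXT2, and HXT5 and HXT7, were within counting error of each other. At 39 °C with rapamycin HXT2 led at 149 per kb, followed by HXT5 at 68.9, HXT3 at 54.6, HXT4 at 39.3, HXT7 at 37.0 and HXT1 at 6.84. HXT5 and HXT3, and HXT4 and HXT7, were within counting error there. HXT2 and HXT1 were thus first and last at 39 °C in both columns.

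The make-up of the family shifted more than its sum. The 6 measured carriers together had 556 normalized reads per kb at 30 °C and 311 at 39 °C, a sum 1.79-fold lower (counting interval 1.66 to 1.92). The low-affinity carriers HXT1 and HXT3 made up 77.7% of that sum at 30 °C and 12.8% at 39 °C. HXT5 and HXT7 went from 1.6% to 34.4%, and HXT2 from 11.2% to 40.4%. HXT6 is outside these sums, and the uncertain HXT7 value is inside them.

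The kinase sum went the other way. HXK1, HXK2 and GLK1 together had 294 normalized reads per kb at 30 °C and 2120 at 39 °C, 7.22-fold higher (6.78 to 7.69). HXK2 held 77.0% of it at 30 °C, with GLK1 at 15.4% and HXK1 at 7.6%. At 39 °C GLK1 held 49.9%, HXK1 40.9% and HXK2 9.1%. HXK2 itself had 226 per kb at 30 °C and 194 at 39 °C, so its smaller share came with little difference in its own normalized value. The median kept gene had 26.9 and 27.4 per kb, and whether the scaling removed a change common to most genes was not tested. By level per kb GLK1 ranked 40th and HXK1 54th at 39 °C among the 4418 kept genes with a length, against 1382nd and 2585th at 30 °C.

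**Figure D2:**
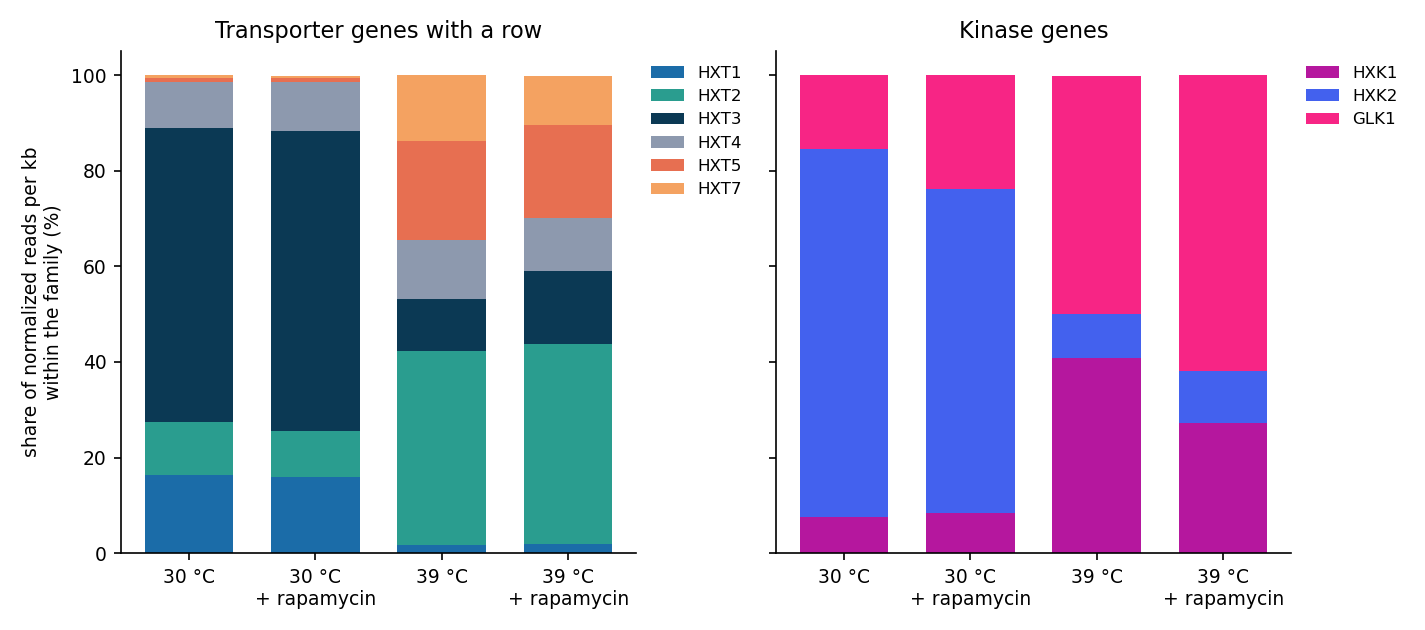
Share of each gene (vertical, percent of normalized reads per kb within its family) in the 4 conditions, for the 6 carriers with a row (left) and the 3 kinases (right). HXT3 is the main carrier at 30 °C (61.5%) and HXT2 at 39 °C (40.4%), while HXK2 gives way to GLK1 and HXK1.

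The second comparison is rapamycin at 30 °C, which asks what differs with rapamycin in the absence of heat shock. It cannot tell loss of nuclear Hsf1 from any other action of rapamycin. None of the 9 genes passed 2-fold. Over all kept genes 0.0436% passed it upward and 0.371% downward, so a count of 0 is near the background. GLK1 had the widest ratio, 0.70 with a counting standard error of 0.13, from 68.0 to 112 normalized reads, 1.65-fold higher (1.37 to 2.0). That placed GLK1 29th from the top of all 4585 genes. The remaining 8 genes had log2 ratios from -0.33 for HXT7 to 0.24 for HXK1. Of these, HXT3 was beyond its counting interval, at 1.10-fold (1.03 to 1.18), and HXT7, with the lowest ratio, had an interval from 0.359 to 1.45. The share of GLK1 in the kinase sum was 15.4% without and 23.8% with rapamycin.

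The third comparison is rapamycin at 39 °C, which asks what differs with rapamycin during heat shock. Here too, loss of nuclear Hsf1 and any other action of rapamycin cannot be told apart. Again none of the 9 genes passed 2-fold, against 5.37% of all kept genes upward and 2.88% downward. These were 246 and 132 genes, and 331 and 103 with equal column totals. HXK1 had the lowest ratio, -0.85 with a counting standard error of 0.06. It went from 1266 normalized reads without rapamycin to 703 with it, 1.80-fold lower (1.67 to 1.95), the 208th lowest of all. HXT3 had the highest ratio, 0.65 (counting standard error 0.18), from 58.4 to 93.1 normalized reads. HXT2 was 1.18-fold higher (1.02 to 1.37). GLK1 and HXK2 had ratios of 0.04 and -0.01, with intervals of the fold from 0.973 to 1.09 and from 0.868 to 1.14. HXT1, HXT4, HXT5 and HXT7 lay between -0.21 and 0.21, each within counting error of 0. With equal column totals the median of all kept genes moved to 0.14, the HXK1 ratio to -0.721 and the HXK2 ratio, with a change of sign, to 0.114. The GLK1 ratio moved to 0.167, against a counting standard error of 0.04, so its closeness to 0 depends on the scaling.

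The rapamycin ratios were then set against each other between temperatures, as the ratio at 39 °C minus the ratio at 30 °C. HXK1 had a difference of -1.08 with a counting standard error of 0.21, since its ratio was 0.24 at 30 °C and -0.85 at 39 °C. Of all kept genes 3.75% had a difference of -1 or lower and 6.91% of 1 or higher. GLK1 had a difference of -0.66 (counting standard error 0.14), HXT3 one of 0.51 (0.19) and HXT2 one of 0.33 (0.17). The other 5 genes lay between -0.19 and 0.14, within counting error of 0. Per kb, HXK1 and GLK1 had 22.3 and 45.2 normalized reads at 30 °C and 26.6 and 74.8 there with rapamycin. At 39 °C they had 868 and 1060 without rapamycin and 482 and 1090 with it.

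The fourth comparison is heat shock with rapamycin, and it shares no column with heat shock without it. For each gene, its ratio minus the ratio without rapamycin equals, by arithmetic, the difference between temperatures given above. Setting the heat shock ratios side by side therefore restates those differences. HXT2, HXT5, HXT7, HXK1 and GLK1 were at least 2-fold higher at 39 °C, 5 of 9 genes against 12.3% of all kept genes. HXT1 and HXT3 were at least 2-fold lower, against 12.8%. Here too, HXT1, HXT5 and HXT7 were among the kept genes only through the temperature at which they were high. HXT5 had a log2 ratio of 3.42 with rapamycin and 3.48 without, HXT7 had 2.98 and 2.86, and HXT1 had -3.51 and -3.65. These pairs differed by less than their counting standard errors, which were 0.25 to 0.31. The ratio of HXK1 was 4.08 (18.1-fold, 14.6 to 22.5) with rapamycin and 5.17 without it, and that of GLK1 was 3.83 and 4.49. HXT3 had -2.75 with rapamycin and -3.26 without. HXK1 and GLK1 were still the 20th and 28th highest of all genes with rapamycin.

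**Figure D3:**
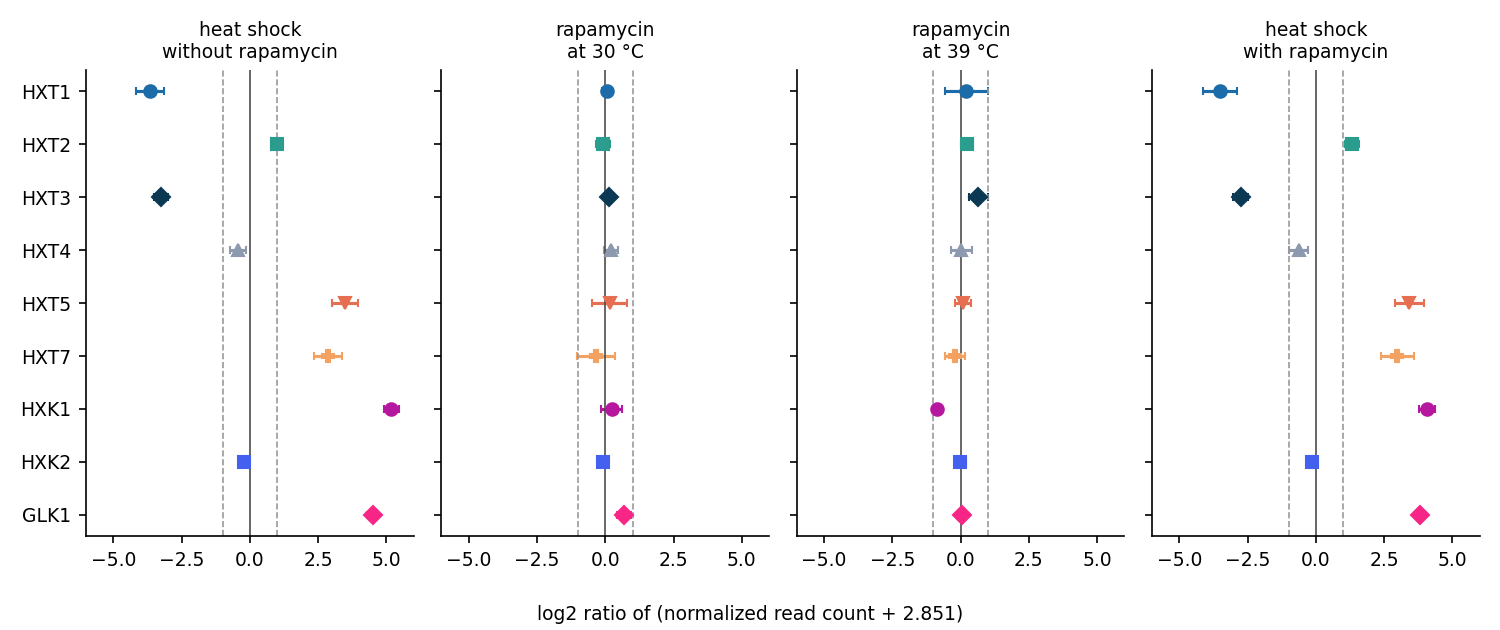
The log2 ratio of (normalized read count + 2.851) for each of the 9 genes in the 4 comparisons, with bars of 1.96 counting standard errors and dashed lines at 2-fold. The heat shock panels spread from -3.65 to 5.17, while all points of the rapamycin panels lie between -0.85 and 0.70.

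HXT1 and HXT5, which are neighbours, differed in direction. HXT4, HXT1 and HXT5 follow each other on chromosome VIII, with 2101 bases between HXT4 and HXT1 and 2043 between HXT1 and HXT5. Their heat shock log2 ratios without rapamycin were -0.44, -3.65 and 3.48. PAL2, 937 bases beyond HXT5, had a ratio of 2.67, from 16.1 to 118 normalized reads. On chromosome IV, HXT7 and HXT3 lie 7028 bases apart with HXT6 between them, and had ratios of 2.86 and -3.26. The nearest gene to the left of HXK1 with RefSeq coordinates, the proteasome subunit gene RPN12 at 262 bases, had a ratio of 0.43, and the nearest to the right, IRC7 at 9154 bases, had -2.06. PDI1 and GID7 on the sides of GLK1 had 1.06 and 0.44. FZF1 and RTG2 on the sides of HXK2, which itself had -0.22, had -0.69 and 0.15.

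**Figure D4:**
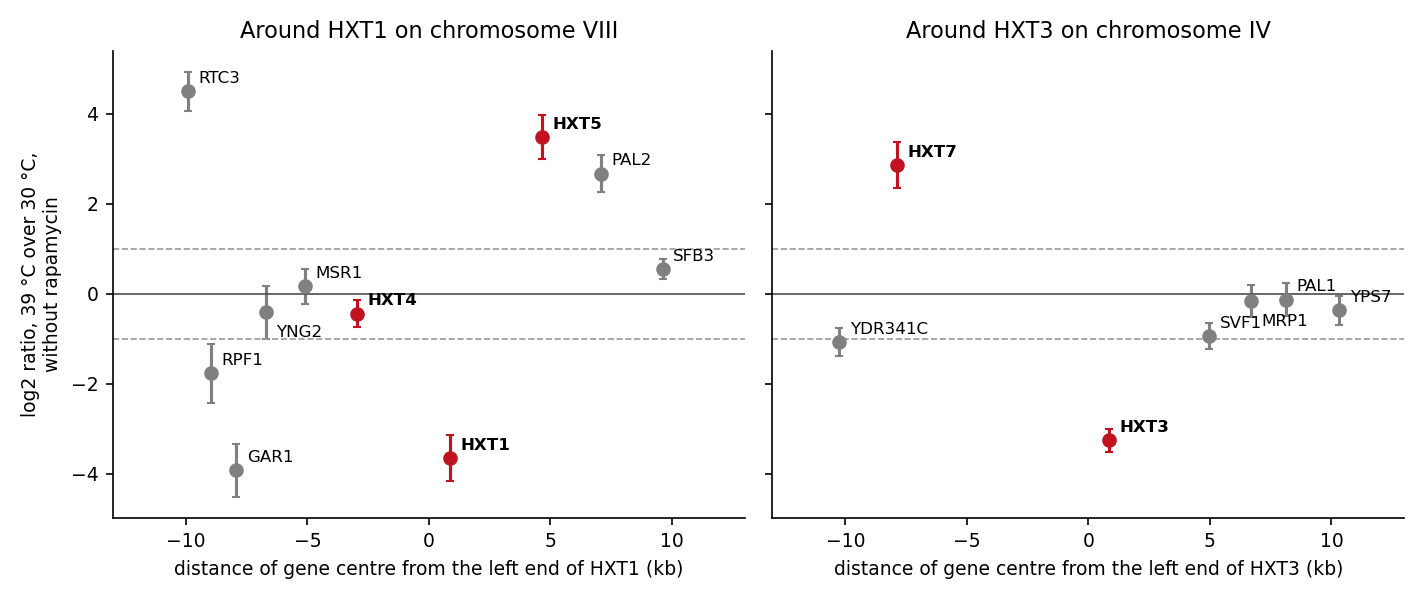
Heat shock log2 ratio without rapamycin (vertical) of HXT1 (left) and HXT3 (right) and the measured genes within 10 kb, by the distance of the gene centre from the left end of that gene (horizontal, kb). Bars are 1.96 counting standard errors, carriers are red and other genes grey. HXT5 at 3.48 and HXT1 at -3.65 are direct neighbours among the carriers, as are HXT7 at 2.86 and HXT3 at -3.26 among those with a row.

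Genes with the most similar pattern were sought for the 6 members whose log2(value + 2.851) spanned at least 2 over the 4 conditions. The measure was the Euclidean distance between these log2 values, centred on each gene's mean. For HXT7 the closest gene was EMI2, a glucokinase paralog of GLK1, at a distance of 0.051, followed by HBT1 and PYK2, the latter a pyruvate kinase gene. HXT5 was closest to the glycogen synthase gene GSY1 (0.109), the trehalose phosphate synthase gene TPS1 and GND2, a gene of the pentose phosphate pathway. GLK1 was closest to SOL4 (0.161), ALD3 and RTC3, and HXK1 to MSC1 (0.431), the glycogen phosphorylase gene GPH1 and RTC3. HXT3 was closest to the malic enzyme gene MAE1 (0.151), ENP1 and RFU1, and HXT1 to INA1 (0.244), DBP2 and NOP7. These are likenesses over only 4 values per gene, and the pseudocount draws low values together. ENP1 had 57.76 normalized reads at 30 °C, 3.035 at 39 °C and 7.485 at 39 °C with rapamycin. RFU1 had 41.98, 1.645 and 5.245 in these columns, against 583, 58.4 and 93.1 for HXT3.

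The other genes of the pathway were read from 6 lists with 60 genes, of which 52 had a row. Their counts past 2-fold stand beside the shares over all kept genes given above, which in heat shock were 16.1% higher and 17.9% lower without rapamycin and 12.3% and 12.8% with it. Those shares leave out genes under the filter, which the list counts hold. Of 12 further transporters and sensors 4 were measured, HXT8, GAL2, SNF3 and RGT2. In heat shock without rapamycin SNF3, a sensor of low glucose, was higher at 1.48 (counting standard error 0.26), from 11.1 to 36.2 normalized reads. RGT2, the sensor of high glucose, had 0.52. GAL2, the galactose carrier gene, was lower at -1.10, on values of 8.96 and 2.66. HXT8 passed 2-fold with rapamycin at 30 °C alone, at -1.03 (counting standard error 0.33), from 14.1 to 5.44 normalized reads. With rapamycin at 39 °C SNF3 was just short of 2-fold lower, at -0.98, while HXT8 had -0.27, RGT2 0.19 and GAL2 0.49. GAL2 and HXT8 were under the filter, and SNF3, GAL2 and HXT8 were not past 2-fold under a pseudocount of 0.5 times the median. The median of the 4 was 0.02 in heat shock without rapamycin and -0.36, -0.04 and 0.62 in the other comparisons, in the order used above. The median of all kept genes was 0.0113 in heat shock without rapamycin, and 0.0018, 0.0218 and -0.0006 in the others.

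Of the 8 genes of the glucose induction pathway, RGT1 was higher and STD1 lower in heat shock without rapamycin. RGT1, the repressor of HXT genes, had 46.7 normalized reads at 30 °C, 44.6 at 30 °C with rapamycin, 152 at 39 °C and 74.8 at 39 °C with rapamycin. Its heat shock ratio was 1.64 without and 0.71 with rapamycin, and rapamycin at 39 °C gave a 2.03-fold lower value (1.61 to 2.57), which after adding the pseudocount was just short of 2-fold. STD1, a corepressor acting with Rgt1, had 77.1, 74.3, 17.3 and 23.2 normalized reads and ratios of -1.99 and -1.57. Its paralog MTH1 had 17.7, 28.7, 17.5 and 19.2 and the widest ratio of the list with rapamycin at 30 °C, 0.62. The list medians were -0.01, -0.04, -0.11 and -0.27.

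Among the 14 genes of the glucose repression pathway, MIG2, a repressor related to Mig1, was lower in both heat shock comparisons. It had 98.9, 106, 16.0 and 10.5 normalized reads, with ratios of -2.43 without and -3.03 with rapamycin. GAL83, a subunit of the Snf1 complex, was at 1.07 and 1.12, but did not pass 2-fold in either with the pseudocount of 0.5 of the median, nor without rapamycin with equal column totals. MIG1 itself had 48.7, 46.1, 41.7 and 27.4 normalized reads and did not pass 2-fold. In the comparisons of rapamycin against no rapamycin at 30 °C and at 39 °C, no gene of the list passed 2-fold. The widest ratios there were those of TOS3 at 30 °C (0.63) and MIG1 at 39 °C (-0.56). The medians were 0.29, 0.05, -0.17 and 0.20.

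Of the 10 glucose-repressed targets, 5 were higher and 1 was lower in heat shock without rapamycin, with a median of 0.99. With the pseudocount of 0.5 of the median 3 were higher, and with equal totals 4. The higher ones were the transcription factor genes ADR1 at 3.25, SIP4 at 2.99 and CAT8 at 2.07, JEN1, a lactate carrier gene, at 1.27, and the invertase gene SUC2 at 1.13. ADH2, the alcohol dehydrogenase gene that Adr1 is known to activate, was lower at -2.16, on values of 21.1 and 2.52. ADR1 had 11.7, 6.06, 136 and 44.1 normalized reads, and SIP4 had 2.21, 2.10, 37.4 and 5.20. With rapamycin at 39 °C both were lower, at -1.57 and -2.32. SUC2 was just short of 2-fold lower there, at -0.99, and CAT8 was at -0.87. ADH2, ICL1 and MLS1 had ratios above 0, at 0.65, 0.02 and 0.39. With a pseudocount of 0.01 of the median 3 targets were lower and 1 was higher in that comparison. In heat shock with rapamycin ADR1 was higher, at 2.40, and ADH2 lower, at -1.01. That count depended on the pseudocount, since before it was added JEN1, CAT8 and SIP4 had folds of 2.26, 2.16 and 2.48, and with 0.01 of the median 4 were higher and 2 lower. With equal totals 2 were lower, and with 0.5 of the median 0. With rapamycin at 30 °C ADR1 was widest at -0.71, and none passed 2-fold. The other medians were -0.12, -0.49 and 0.62, and 5 of the 10 genes were under the filter, SIP4 and ADH2 among them.

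Of 5 genes for ubiquitin-dependent turnover of carriers at the plasma membrane, CSR2 at 1.54, ROG3 at 1.14 and ROD1 at 1.03 were higher in heat shock without rapamycin, and ROD1 at 1.10 with it. Without rapamycin 1 of the 5 was higher with equal totals or with a pseudocount of 0.5 of the median, and with rapamycin 0 with that pseudocount. With rapamycin alone none passed 2-fold, the widest being ROG3 at 0.58 at 30 °C and CSR2 at -0.75 at 39 °C. The medians were 1.03, 0.14, -0.12 and 0.55.

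Of 11 genes for steps next to the kinases, 6 were higher and 1 was lower in both heat shock comparisons. PGM2, the main phosphoglucomutase gene, had 16.4, 14.6, 755 and 1013 normalized reads and ratios of 5.30 and 5.87, and TPS1 had 3.54 and 3.19. EMI2 was at 2.92 and 3.02, ZWF1, the entry enzyme of the pentose phosphate pathway, at 1.43 and 1.20, PFK26 at 1.49 and 1.01, and FBP26 at 1.79 and 1.02. PFK26 and PFK27 both encode enzymes that make fructose 2,6-bisphosphate. PFK27 was the lower one, at -1.22 and -1.51, and was not past 2-fold without rapamycin with a pseudocount of 0.5 of the median. In heat shock with rapamycin 4 genes, not 6, were higher with equal totals or with that pseudocount. The genes for the glycolytic steps proper, PGI1, PFK1 and PFK2, had ratios from 0.21 to 0.64 without rapamycin. With rapamycin alone none passed 2-fold, EMI2 at -0.31 (30 °C) and FBP26 at -0.58 (39 °C) being the widest. The medians were 1.43, 0.04, -0.16 and 1.01.

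**Figure D5:**
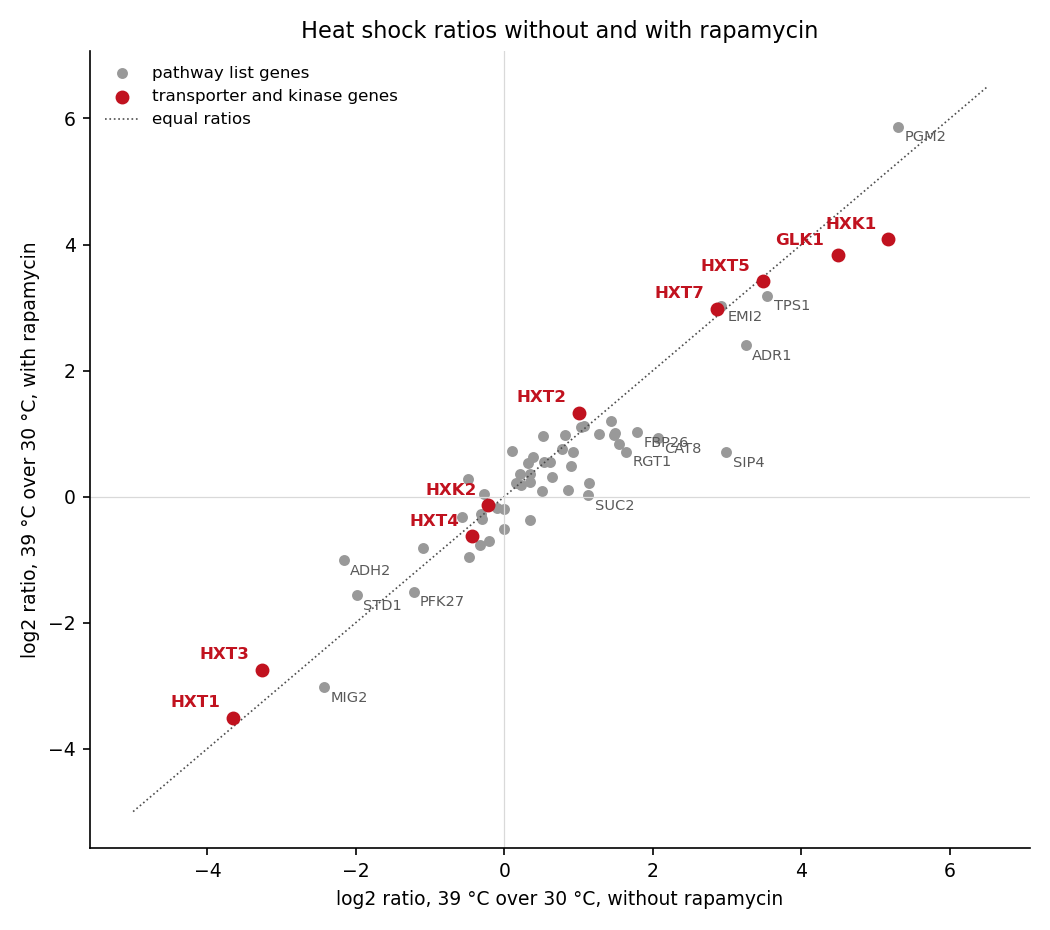
Heat shock log2 ratio without rapamycin (horizontal) and with rapamycin (vertical) for the 9 transporter and kinase genes (red) and the 52 measured pathway genes (grey), 1 point per gene, with a dotted line of equal ratios. HXT1, HXT5 and HXT7 lie close to the line, and HXK1 (5.17 and 4.08), ADR1 (3.25 and 2.40) and SIP4 (2.99 and 0.70) lie below it.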

How the data were processed

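Nascent RNA was measured in 4 conditions. HTSeq and the build sacCer3 are listed per the submitters' processing notes. The deposited values are a signal, an average by the authors of normalized read counts, 1 column per condition per the file headers. The aligner, strand setting, annotation, treatment of reads with several positions and scaling were not given in the sources used here. Near-identical or overlapping genes are therefore uncertain.

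Columns were matched to conditions by their abbreviations. Ratios were computed as differences of log2(value + 2.851), 0.1 of the median value, with Python 3.11.15, numpy 2.4.6 and pandas 2.3.3. Genes with a mean over the columns of at least 14.442, the 20th percentile, were kept (4585). A call is 2-fold. Among values under 6, 99.4% to 100% per column equalled a sum of multiples of 2 fitted steps (tolerance 0.0055). Of the sums that the steps allow there, 70% occurred at 30 °C without rapamycin and 93.7% to 100% in the other columns. The number of 2 libraries per column was set in the fit, while the labels list 1 sample per condition. From these steps the counting error was derived, with equal expected values in both libraries assumed. It was 11.3% to 17.1% of the median gene's value. The step fit and the ratios were tried on simulated data with 2 libraries per column and counting error alone. That simulation shares these assumptions with the fit, so it cannot check them. Members, lists and rules were chosen with earlier results of these data known. All members are named, and from the lists the genes past 2-fold or, failing that, the widest. RGT2, MTH1, MIG1, PGI1, PFK1, PFK2 and the genes beside members were added after their values were seen. Coordinates and coding lengths are from the RefSeq table (R64), which matched 5351 of 5732 rows. No sequence is shown, and promoter and protein comparisons were not made here.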

Additional observations from a re-analysis of the deposited data

Results flagged for a closer look

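HXK1 had rapamycin ratios of opposite sign at the 2 temperatures, 0.24 at 30 °C and -0.85 at 39 °C, a difference of -1.08 that exceeded counting error. Its ratio at 30 °C did not exceed counting error (fold interval 0.889 to 1.6), so the sign there is not established. HXT2 had -0.09 and 0.24, a difference of 0.33 that lay at the edge of counting error, and its ratio at 30 °C was within counting error as well (0.784 to 1.12). Neither difference was tested, because each value is 1 mean per condition.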

How the results depend on the processing

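No paired analysis was possible because each condition has 1 column of means, and for the same reason no replicate could be left out. The planned sum of HXT6 and HXT7 was not run, since HXT6 had no row. Over 2 other pseudocounts, equal totals, median-ratio factors and a 1.5-fold rule, the counts of members past the threshold kept within 1.5 times in 37 of 40 cases. Many of these cases set 0 against 0, because the main counts for rapamycin at 30 °C and at 39 °C were 0, so the tally says little about those comparisons. The exceptions came with the 1.5-fold rule, by construction, with 1 member higher (GLK1) for rapamycin at 30 °C, and 1 higher (HXT3) and 1 lower (HXK1) for rapamycin at 39 °C, against 0 each. HXT2 passed 2-fold without rapamycin under a pseudocount of 0.01 times the median (1.016). The HXK1 difference between temperatures ranged from -1.102 to -0.99, the latter with equal totals, which moved the median gene by -0.17 in heat shock without rapamycin. That scaling gave 590 genes higher and 1018 lower there, against 740 and 820.

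Low values limit HXT1, HXT5 and HXT7. Their heat shock ratios under a pseudocount of 0.5 times the median were -2.819, 2.553 and 2.001. That setting also gave 91 genes higher and 82 lower for rapamycin at 39 °C (246 and 132 with the main pseudocount), 0 and 11 at 30 °C (2 and 17), and 361 lower in heat shock with rapamycin (588). The higher count at 30 °C was 10 with a pseudocount of 0.01, 5 without a filter and 0 when filtered at the 40th percentile. The 1.5-fold rule gave 1257 higher and 1296 lower, 73 and 64, 716 and 489, and 1048 and 1095 in the 4 comparisons. Among the lists, a pseudocount of 0.5 left 3 glucose-repressed targets higher (5) and 1 turnover gene higher (3) in heat shock without rapamycin. It left none for SNF3, GAL2, GAL83 and PFK27 there, HXT8 with rapamycin at 30 °C, and GAL83, ROD1 and ADH2 in heat shock with rapamycin. With equal totals GAL83 was not past 2-fold in heat shock without rapamycin, and 1 turnover gene was. A pseudocount of 0.01 brought 4 glucose-repressed targets past 2-fold higher in heat shock with rapamycin (1). For rapamycin at 39 °C it gave 3 of these targets lower (2) and 1 higher (0). It also gave 1 gene lower (0) there in each of the lists of further transporters and sensors and of glucose induction.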
